A study of Mus musculus with 18 samples.

Results

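Nuclear-encoded genes of oxidative phosphorylation were followed in RNA-Seq counts of mouse colon crypt epithelial cells. Members were taken by symbol: the Ndufa, Ndufb, Ndufc, Ndufs and Ndufv genes, Sdha to Sdhd, the Uqcr genes, Cox4 to Cox8, the Atp5 genes, Cyc1 and Cycs. Symbols ending in a pseudogene tag and the Ndufaf assembly factors were left out. The rule used no measured value and gave 86 of the 24047 genes in the count table. They fall into 35 genes of complex I, 4 of complex II, 9 of complex III, 1 for cytochrome c, 20 of complex IV and 15 of complex V. The remaining 2, Atp5s and Atp5sl, carry an ATP synthase name but were not counted as subunits, and were kept apart. Ndufa4 and Ndufa4l2 were counted with complex IV, where the NDUFA4 protein sits. The subunits encoded by mitochondrial DNA were not analysed here.

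All mice were C57BL/6, either wild type (WT) or labelled Ern2-/-, that is, without the endoplasmic reticulum stress sensor ERN2 (IRE1β). Each genotype was sampled in 3 microbial states: CONV (conventionally raised), GF (germ free) and COLONIZED (germ-free mice given cecal microbes, 14 days before sampling per the study's methods). This gave 6 groups of 3 libraries. Per the study, the donors of the cecal microbes were conventionally raised WT mice for both genotypes. It also reports that conventionally raised Ern2-/- mice carried other gut microbes than WT mice. CONV-Ern2-/- and COLONIZED-Ern2-/- thus differed in the source of their microbes as well as in the time of exposure. Crypts were freed with EDTA and caught on a strainer, so the libraries hold all epithelial cell types of the crypt. In such bulk samples fewer cells of a type and less RNA per cell cannot be told apart. The labels do not say more of the replicates than their number, so the p-values measure the spread between these libraries.

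Oxidative phosphorylation is the chain of protein complexes in the inner mitochondrial membrane that passes electrons to oxygen and drives ATP synthesis. Complex I (NADH dehydrogenase) and complex II (succinate dehydrogenase, also an enzyme of the citric acid cycle) feed electrons to ubiquinone, complex III hands them to cytochrome c, complex IV (cytochrome c oxidase) reduces oxygen, and complex V (ATP synthase) uses the proton gradient. Colonocytes are known for oxidising butyrate made by gut bacteria in their mitochondria. Nuclear respiratory factor 1 (NRF1), the ETS factor GABP, oestrogen-related receptors (ERR) and YY1 are known regulators of these genes.

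Promoters are shown because the members come from all over the genome and are regulated in part by shared factors. Of the 86 members, 70 had an entry in the RefSeq promoter table (build GRCm38.p6), each a window of 300 bases, from 250 before to 50 after the annotated start. Exact letters of 4 motifs were searched on both strands. The ETS motif CCGGAAG was in 16 of the 70 member windows (22.9%), against 9.93% of all 27025 gene windows. The NRF1 motif GCGCATGCG was in 9 (12.9%, against 1.95%), and the YY1 motif AAGATGGCG in 8 (11.4%, against 1.64%). The ERR motif TCAAGGTCA was in 2 (2.86%, against 0.466%). A window can hold several motifs, and no motif contains another. At least 1 of the 4 was in 29 member windows (41.4%) and in 13.1% of all windows. These are matches of letters, not measured binding.

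The 120 bases before the start are printed below for 7 members, on the strand of the gene, 5′ to 3′. Cox6a1 and Sdhd are shown because they hold an ETS match, and the other 5 because the text turns on their counts. Capitals mark CTTCCGG, the ETS motif read on the opposite strand. The windows are chr5:115348959-115349078 (Cox6a1, minus strand), chr9:50603850-50603969 (Sdhd, minus), chr2:174464102-174464221 (Atp5e, minus), chr13:74350241-74350360 (Sdha, minus), chr6:11907451-11907570 (Ndufa4, minus), chr7:30184051-30184170 (Cox7a1, plus) and chr7:140900447-140900566 (Cox8b, minus). The last 4 held none of the searched motifs in the bases shown.
Cox6a1: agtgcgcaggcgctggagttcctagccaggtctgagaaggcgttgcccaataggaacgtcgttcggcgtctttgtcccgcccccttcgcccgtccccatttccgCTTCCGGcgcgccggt
Sdhd: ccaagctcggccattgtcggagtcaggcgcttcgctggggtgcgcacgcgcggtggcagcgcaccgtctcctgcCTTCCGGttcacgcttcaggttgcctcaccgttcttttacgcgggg
Atp5e: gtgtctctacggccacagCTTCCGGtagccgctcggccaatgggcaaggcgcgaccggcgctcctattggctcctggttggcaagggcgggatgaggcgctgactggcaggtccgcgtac
Sdha: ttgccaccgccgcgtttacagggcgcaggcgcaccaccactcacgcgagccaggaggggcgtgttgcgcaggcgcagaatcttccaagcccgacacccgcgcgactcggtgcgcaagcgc
Ndufa4: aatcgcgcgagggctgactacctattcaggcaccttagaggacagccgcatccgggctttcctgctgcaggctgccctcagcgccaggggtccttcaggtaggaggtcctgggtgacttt
Cox7a1: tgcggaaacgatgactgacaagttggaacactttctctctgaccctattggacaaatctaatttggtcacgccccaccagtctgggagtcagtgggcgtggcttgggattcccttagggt
Cox8b: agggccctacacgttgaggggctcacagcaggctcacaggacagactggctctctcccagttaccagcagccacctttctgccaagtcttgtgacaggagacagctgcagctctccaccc

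Depth ran from 5865619 to 23154481 counts per library, and the 86 members together took 1.95% to 3.11% of them. The count of the targeted gene did not separate the genotype labels: normalized Ern2 counts were 1909 to 3100 in the WT libraries and 386 to 3336 in those labelled Ern2-/-, where GF-Ern2-/- replicates 1 and 3 held 2877 and 3336. Where the deletion lies relative to the counted reads was not given in the sources used here, and "the Ern2-/- libraries" below means the libraries so labelled. Y-linked transcripts were present in 0, 2 and 1 of the 3 GF-WT, COLONIZED-WT and CONV-WT libraries and in 2, 2 and 3 of the Ern2-/- libraries in that order, so sex was not balanced. Colonocyte markers (10 genes, summed) ran from 45776 to 531903 normalized counts and goblet cell markers from 68061 to 656437. Mesenchymal markers summed to at most 270 in any library.

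Of the 86 members, 79 had a mean of 20 or more normalized counts (scaled by DESeq2's median of ratios) over the 18 libraries and are called detected here. They were 34 of complex I, 4 of complex II, 9 of complex III, cytochrome c, 14 of complex IV, 15 of complex V, and Atp5s and Atp5sl. The 7 others were mostly tissue-restricted isoforms. Cox6a2, the heart and skeletal muscle form, had 15 raw counts over all libraries, Cox4i2 13, Ndufa4l2 3 and Cox7b2 2, and Cox8c had 0. Cox8b had 157 and is described below. Ndufs5, a complex I subunit of every cell, was also listed at 0 in all 18 libraries, so its 0 need not mean that it was silent. Atp5l, a subunit of the ATP synthase membrane part, had 14.0 to 52.4 normalized counts and Ndufb4 168 to 441. Both are far below their complexes and have near-identical copies in the genome, between which the counting may have split reads.

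Levels differed far more between genes than between groups. Per kilobase of annotated exon (means over 18 libraries), Cox4i1, the main regulatory subunit of complex IV, stood highest at 21560 normalized counts and Atp5b, the catalytic beta subunit of ATP synthase, second at 20665. Cox6a1 followed at 15972, Cox8a at 15237, the complex III hinge protein gene Uqcrh at 12536 and Atp5g3, which encodes the proton-carrying c subunit, at 12019. Complex I genes were lower, from 231 (Ndufb4) to 5828 (Ndufb9), and its flavin-binding core subunit gene Ndufv1 was at 2642. In complex II the membrane anchor gene Sdhd was at 5087, the iron-sulfur subunit gene Sdhb at 4360, the flavoprotein gene Sdha at 3320 and the other anchor gene Sdhc at 1553. Cycs, the electron carrier itself, was at 377, a low value to which its long annotated exons add. Such values depend on the annotation, since long or retained exons lower them.

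**Figure D1:**
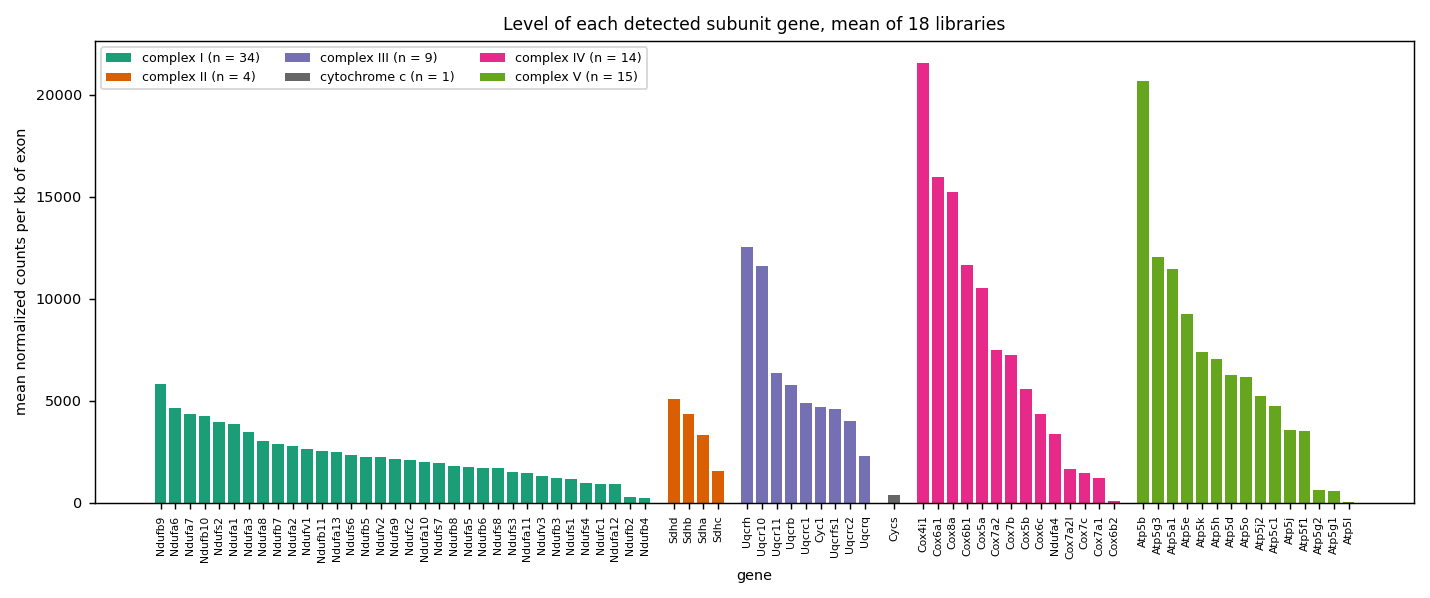
Mean level of each detected gene of complexes I to V and of cytochrome c over the 18 libraries. Values are normalized counts per kilobase of annotated exon, 1 bar per gene, grouped by complex. Cox4i1 (21560) and Atp5b (20665) stand at the top, and complex I genes lie at or under 5828.

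Where a subunit has several gene copies, 1 form held most of the family's counts per kilobase in every group. Atp5g3 held 89.6% to 91.8% of the c-subunit family, and Cox4i1 practically all of the Cox4 pair. Of the Cox7a family, the muscle-type form Cox7a1 took 12.8% in GF-WT, 10.3% in COLONIZED-WT and 9.45% in CONV-WT, and 12.0%, 10.8% and 14.7% in the Ern2-/- groups in that order. The minor form Cox6b2 took 0.27% of its pair in GF-WT, 0.84% in COLONIZED-WT and 0.95% in CONV-WT, and 0.27%, 0.71% and 0.51% in the Ern2-/- groups.

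The level of the detected members as a whole was read in each library. For each library, each gene's log2(normalized count + 1) was taken relative to its mean over the 18 libraries, and the median over the 79 genes is the library's deviation. It was -0.01, 0.18 and -0.13 in the GF-WT libraries (replicates 1 to 3), -0.13, 0.02 and -0.03 (COLONIZED-WT), and -0.07, -0.04 and -0.06 (CONV-WT). In the Ern2-/- libraries it was 0.11, 0.52 and 0.06 (GF), -0.18, -0.39 and -0.13 (COLONIZED), and -0.10, 0.06 and 0.38 (CONV). The WT libraries thus lay between -0.13 and 0.18, while single Ern2-/- libraries reached both ends: GF replicate 2 was highest, CONV replicate 3 next and COLONIZED replicate 2 lowest.

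As group means the deviation was 0.01 ± 0.16 (SD, n = 3) in GF-WT, -0.05 ± 0.08 in COLONIZED-WT and -0.06 ± 0.02 in CONV-WT. It was 0.23 ± 0.25 in GF-Ern2-/-, -0.23 ± 0.14 in COLONIZED-Ern2-/- and 0.11 ± 0.24 in CONV-Ern2-/-. The GF-Ern2-/- libraries lay above all COLONIZED-Ern2-/- libraries, and so did the CONV-Ern2-/- libraries, which overlapped GF-Ern2-/-. Complexes I to V gave much the same values in the Ern2-/- groups: in GF-Ern2-/- 0.22, 0.30, 0.20, 0.28 and 0.20, and in COLONIZED-Ern2-/- -0.23, -0.24, -0.31, -0.25 and -0.22. CONV-WT replicate 3 was less uniform: complex IV stood at -0.29 and complex I at -0.17, but complex V at 0.07 and complex II at 0.12. Cytochrome c differed in pattern, with its lowest group mean in GF-WT (-0.27 ± 0.09) and its highest in CONV-Ern2-/- (0.38 ± 0.21).

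**Figure D2:**
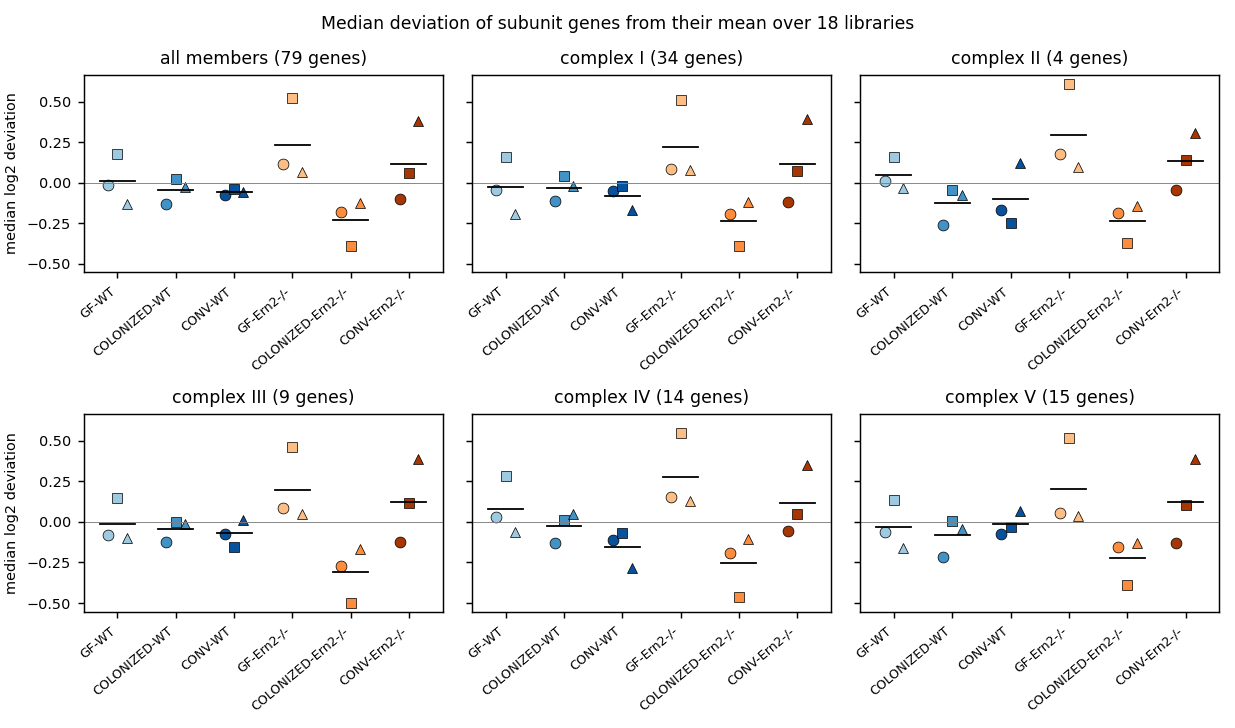
Median log2 deviation of the detected members of each complex in each of the 18 libraries, relative to each gene's mean over all libraries, with 1 point per library by group. In the Ern2-/- libraries complexes I to V lie close together, from -0.39 (COLONIZED-Ern2-/- replicate 2) to 0.52 (GF-Ern2-/- replicate 2) over all members.

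Gene by gene, GF-Ern2-/- replicate 2 was the highest of the 18 libraries for 47 of the 79 detected members and CONV-Ern2-/- replicate 3 for 28. COLONIZED-Ern2-/- replicate 2 was the lowest for 45 and CONV-WT replicate 3 for 12. By group mean, GF-Ern2-/- was the highest for 54 genes and COLONIZED-Ern2-/- the lowest for 54. The highest library stood at a median of 2.12 times the lowest, from 1.62 (Atp5sl) to 6.08 (Cox6b2). GF-Ern2-/- replicate 2 was also the library with the fewest Ern2 counts (386), and its colonocyte marker sum of 529775 compared with 63141 and 99339 in the other GF-Ern2-/- libraries. Of these markers Car1 had the largest SD in that group (143627 ± 200544, SD, n = 3). Others also spread widely, such as Cyp2c55 (24210 ± 35002), Krt20 (9029 ± 4257) and Aqp8 (3332 ± 1708). Car4 (5099 ± 449) and Ceacam20 (1541 ± 207) spread least for their means. Single markers are not given by library here. The part of cell makeup in the members' shift was not tested.

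Next, 9 pairs of groups were compared, each with DESeq2's Wald test on its own 6 libraries, with calls at a p under 0.01 after Benjamini-Hochberg adjustment over all genes tested. Another 2 fits tested the interaction, that is, whether microbes had another effect in the Ern2-/- libraries than in WT. Comparisons share control libraries and are given side by side. Calls were few throughout: 19 in all, in 12 genes. edgeR's quasi-likelihood test gave these 19 adjusted p-values of 0.00959 to 0.0748, with only Cox6b2 in COLONIZED-WT versus GF-WT under 0.01.

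**Figure D3:**
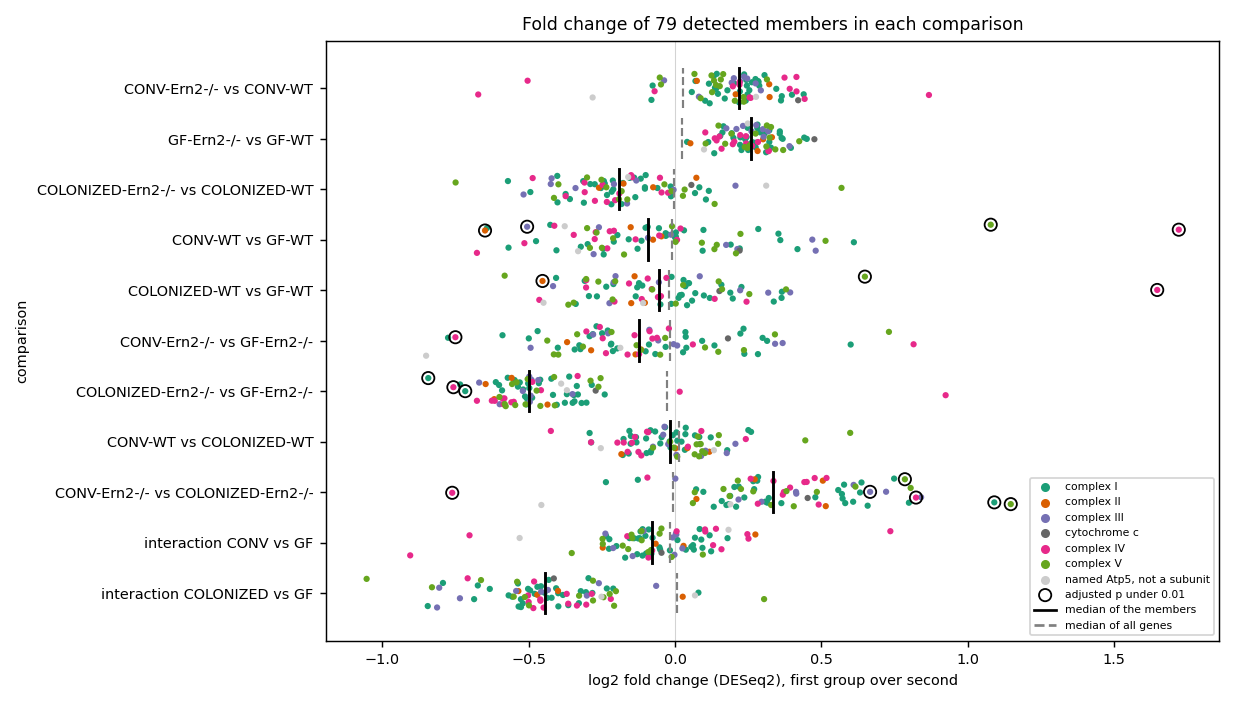
Log2 fold change of every detected member in each of the 9 comparisons and 2 interactions, 1 point per gene by complex, with the members' median and the genes called by DESeq2 marked. The members' median is lowest in COLONIZED-Ern2-/- versus GF-Ern2-/- (-0.50) and highest in CONV-Ern2-/- versus COLONIZED-Ern2-/- (0.34).

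The effect of life-long microbes in WT mice was read from CONV-WT versus GF-WT. Members called were Sdha, Uqcrb and Cox8b lower and Atp5e and Cox6b2 higher, 5 of 86, against 11% of all genes tested. The median log2 fold change of the detected members was -0.09 (all genes -0.01). Groups did not overlap for 10 members higher in CONV-WT (18.7% of detected genes did so) and 23 lower (19.2%). With the library total as a covariate none of these 5 calls remained (adjusted p from 0.0383 to 0.102). Leaving out GF-WT replicate 1 or 2 left 2 calls (5.87% and 5.1% of all genes), leaving out GF-WT replicate 3 or CONV-WT replicate 2 left 1 (5.09% and 4.31%), and leaving out CONV-WT replicate 3 gave 8 (20.8% of all genes). Of the 10 colonocyte markers 5 were called lower in this comparison, and of the 5 measured tuft cell markers 4 higher. Of the 10 goblet cell markers 3 were called higher and 2 lower, and of 8 mesenchymal markers 2 higher. Their part in the members' values was not tested.

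After 14 days of colonization, COLONIZED-WT versus GF-WT, the calls were Sdha and Cox8b lower and Atp5e and Cox6b2 higher, 4 members, against 18.3% of all genes. The members' median was -0.05 (all genes -0.02). Groups did not overlap for 9 members higher (23.9% of detected genes) and 24 lower (25.4%). Without COLONIZED-WT replicate 1 or 2 the calls came to 2 (9.22% and 14.1% of all genes). With the presence of Y-linked transcripts as a covariate there were 0 calls (1.92% of all genes). The library total as a covariate ended the calls of Sdha, Cox8b and Atp5e (adjusted p = 0.0316, 0.0108 and 0.0915) but not that of Cox6b2 (0.00650). Colonocyte markers called lower numbered 4 of 10 and tuft cell markers called higher 5 of 5. Of the 10 goblet cell markers 6 were called higher and 2 lower, and of the 8 stem and progenitor markers 1 higher. Their part was not tested.

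Sdha (chr13:74322255-74350240), the catalytic flavoprotein of complex II, had 11430, 11346 and 12108 normalized counts (GF-WT), 7436, 8725 and 9166 (COLONIZED-WT) and 8011, 7036 and 7339 (CONV-WT). Every WT library with microbes lay below every GF-WT library. Sdha fell by 0.65 ± 0.13 (SE) on the log2 scale in CONV-WT (adjusted p = 1.79e-05) and by 0.45 ± 0.13 in COLONIZED-WT (adjusted p = 0.00285). The CONV-WT call was lost with the replicate number as a block (-0.65, adjusted p = 0.0164), with the library total as a covariate (-0.60, 0.0383) and by edgeR (-0.63, 0.0638). The COLONIZED-WT call was lost with the library total (-0.44, 0.0316) or Y-linked transcripts (-0.40, 0.240) as a covariate and by edgeR (-0.44, 0.0377). In the Ern2-/- libraries Sdha had 12429, 12746 and 10840 (GF), 8706, 9217 and 8783 (COLONIZED) and 10742, 8476 and 8758 (CONV). The same order, without overlap, was seen there, but no Ern2-/- comparison fitted on its own 6 libraries passed the test for Sdha. The other 3 complex II genes were not called in WT.

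Uqcrb (chr13:66900576-66905350), a ubiquinone-binding subunit of complex III, had 3369, 3523 and 3444 (GF-WT), 2200, 2772 and 2721 (COLONIZED-WT) and 2401, 2483 and 2447 (CONV-WT). The libraries with microbes all lay below the GF-WT libraries. Uqcrb fell by 0.51 ± 0.11 in CONV-WT (adjusted p = 6.35e-05). This call was lost with the replicate block (adjusted p = 0.0749), with the library total (0.0578) or Y-linked transcripts (0.0678) as a covariate and by edgeR (0.0748). The core protein gene Uqcrc1 and the cytochrome c1 gene Cyc1 were called in none of the 9 comparisons fitted on their own 6 libraries.

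Atp5e (chr2:174461075-174464101), the epsilon subunit of the ATP synthase stalk, was higher in WT with microbes. By sign alone, 28 of the 79 detected members were higher and 51 lower in CONV-WT versus GF-WT (48.9% of all detected genes higher). In COLONIZED-WT versus GF-WT 34 were higher and 45 lower (48% higher). Atp5e had 2431, 3468 and 1960 (GF-WT), 4464, 3825 and 3941 (COLONIZED-WT) and 4659, 6717 and 5340 (CONV-WT). All WT libraries with microbes exceeded those without. Atp5e rose by 1.08 ± 0.29 in CONV-WT (adjusted p = 0.00244) and by 0.65 ± 0.21 in COLONIZED-WT (adjusted p = 0.00982). The COLONIZED-WT call was lost in the fit of all 18 libraries (adjusted p = 0.150). The Ern2-/- libraries held 2752, 3971 and 2975 (GF), 2795, 1526 and 2987 (COLONIZED) and 3083, 6330 and 6738 (CONV). In 2 of the 3 CONV-Ern2-/- libraries the values lay above all GF libraries of both genotypes. Atp5e rose by 1.15 ± 0.33 in CONV-Ern2-/- versus COLONIZED-Ern2-/- (adjusted p = 0.00731).

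Cox6b2 (chr7:4751792-4753094), known as the testis form of a complex IV subunit, was scarce. It had 29.2, 20.3 and 20.1 (GF-WT), 92.0, 59.5 and 64.3 (COLONIZED-WT) and 52.8, 99.8 and 78.5 (CONV-WT). Both groups with microbes lay above GF-WT without overlap, and overlapped each other. Cox6b2 rose by 1.72 ± 0.39 in CONV-WT (adjusted p = 0.000238) and by 1.65 ± 0.34 in COLONIZED-WT (adjusted p = 2.8e-05). In the Ern2-/- libraries the values were 16.4, 20.1 and 45.9 (GF), 42.7, 48.6 and 64.2 (COLONIZED) and 47.0, 53.3 and 44.2 (CONV). Those groups overlapped and no call was made among them.

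Cox8b (chr7:140898942-140900446), the muscle and brown fat form of a complex IV subunit, was close to the limit of detection. Normalized counts were 30.0, 28.7 and 17.4 (GF-WT), 0.713, 5.14 and 0 (COLONIZED-WT) and 0, 1.98 and 0 (CONV-WT). GF-Ern2-/- libraries had 14.2, 7.02 and 13.6, and no other Ern2-/- library more than 2.76. Every GF library thus exceeded every library with microbes, in both genotypes. Scaled by library, the 105 raw counts of GF-WT were 33.0-fold those of CONV-WT (2 counts, 95% exact counting interval 8.91 to 276) and 12.7-fold those of COLONIZED-WT (8 counts, 6.20 to 30.1). The interval covers counting error only. DESeq2 called both differences (adjusted p = 0.000235 and 0.000114). The brown adipocyte markers Ucp1 and Cidea were at 0 or below 1 in every group mean, and the whole list of 5 summed to at most 13.3 in any library. Of 6 skeletal muscle markers, Acta1 (skeletal alpha-actin) had a mean of 73.5 in GF-WT and 293 in CONV-WT and Mylpf 16.1 and 19.3. Ckm, Myh4, Tnnt3 and Atp2a1 were at 0 or below 2 in both groups. Whether cells of other tissues contributed to the Cox8b counts was not tested.

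Of the core genes, Sdha was called in WT. The core genes Ndufs1 and Atp5a1 were not, but had smaller means with microbes. Ndufs1, the largest iron-sulfur subunit of complex I, had 3937 ± 192 (SD, n = 3) in GF-WT, 2952 ± 310 in COLONIZED-WT and 2670 ± 455 in CONV-WT. Its log2 difference was -0.41 in COLONIZED-WT (adjusted p = 0.01001, just above the threshold) and -0.57 in CONV-WT (adjusted p = 0.0209). Atp5a1, the alpha subunit of ATP synthase, had 36688 ± 804, 28669 ± 2245 and 30652 ± 4573, and in COLONIZED-WT its adjusted p was 0.0112. Cox5a, a complex IV subunit, had 7360 ± 605, 5923 ± 693 and 5565 ± 366. None of these differences passed the test.

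No member was called between CONV-WT and COLONIZED-WT by the test (0 calls, against 0.119% of all genes, with 1 member at an unadjusted p under 0.05 against 8.98%; by edgeR 0, against 0%, and 1, against 7.11%). The members' median was -0.02. The lowest adjusted p was that of Atp5e, 0.44 higher in CONV-WT (adjusted p = 0.424).

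In the Ern2-/- libraries the members' median differed most between COLONIZED and GF. In COLONIZED-Ern2-/- versus GF-Ern2-/- the members' median was -0.50 (all genes -0.03), and 77 of the 79 detected members had a value below 0 (52.6% of all detected genes). By complex the median was -0.48 for I, -0.59 for II, -0.50 for III, -0.57 for IV and -0.50 for V. The test called 3 members, Ndufa1, Ndufa6 and Cox7a1, all lower, against 7.17% of all genes. At an unadjusted p under 0.05 there were 55 members, all lower, against 13.2% of all genes lower. For 58 members, all lower, no library of one group reached the other (18% of detected genes). edgeR called 0 (0.216% of all genes), with 48 members at an unadjusted p under 0.05 (26.2% of all genes, either direction).

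The size of this difference depended on single libraries. Without GF-Ern2-/- replicate 2 the members' median was -0.32, and without COLONIZED-Ern2-/- replicate 2 it was -0.43. Calls went to 1 without GF-Ern2-/- replicate 1 (5.62% of all genes) or COLONIZED-Ern2-/- replicate 3 (4.19%), to 0 without COLONIZED-Ern2-/- replicate 1 (4.77%) or 2 (3.42%), and to 7 without GF-Ern2-/- replicate 3 (8.28% of all genes). Fitting all 18 libraries together, with 1 shared spread per gene, called 22 (8.52% of all genes), but not Cox7a1 (adjusted p = 0.0212). Of the 10 colonocyte markers, 6 were called lower in the same comparison. Of the 7 enteroendocrine markers 4 were called higher, of the 10 goblet cell markers 3 higher and 1 lower, of the 5 tuft cell markers 1 higher and of the 5 endothelial markers 1 lower. Their part in the members' shift was not tested.

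Ndufa1 (chrX:37187588-37191238), an accessory subunit needed for complex I assembly, had 2151, 2861 and 1908 (GF-Ern2-/-) and 1326, 1167 and 1378 (COLONIZED-Ern2-/-). The groups did not overlap, and Ndufa1 fell by 0.84 ± 0.22 (adjusted p = 0.00219). The CONV-Ern2-/- libraries, at 1414, 1346 and 1291, were as low. Ndufa6 (chr15:82350139-82354291), another accessory subunit of complex I, had 4025, 4744 and 3738 against 2709, 2240 and 2684. It fell by 0.72 ± 0.19 (adjusted p = 0.00241). Its CONV-Ern2-/- libraries, at 2684, 3346 and 3482, lay below all GF-Ern2-/- libraries and overlapped the COLONIZED-Ern2-/- ones.

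Cox7a1 (chr7:30184171-30186030), the heart and skeletal muscle form of a complex IV subunit, had 785, 890 and 781 (GF-Ern2-/-), 484, 397 and 577 (COLONIZED-Ern2-/-) and 689, 880 and 1010 (CONV-Ern2-/-). Among the Ern2-/- libraries COLONIZED was the low group, below every GF and CONV library. Cox7a1 fell by 0.76 ± 0.21 against GF-Ern2-/- (adjusted p = 0.00554), and it rose by 0.82 ± 0.23 from COLONIZED-Ern2-/- to CONV-Ern2-/- (adjusted p = 0.00479). In WT it had 770, 917 and 552 (GF), 426, 596 and 589 (COLONIZED) and 358, 423 and 632 (CONV), without a call. CONV-Ern2-/- exceeded CONV-WT in every library, by 0.87 on the log2 scale, with an adjusted p of 0.0695.

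Core members outside the calls also had values below 0, though smaller than those of the called members in the examples given here. Atp5b had 45621, 56208 and 40987 (GF-Ern2-/-) and 35318, 29866 and 33291 (COLONIZED-Ern2-/-). The log2 difference was -0.54 ± 0.19 (adjusted p = 0.0420). Cox4i1 had 15391, 27499 and 15926 against 13513, 11155 and 15660, so that the groups overlapped and replicate 2 stood apart in both. Sdhb had 5591, 7469 and 5336 against 3935, 3780 and 4319, and Ndufs3, a complex I core subunit, 1870, 2213 and 1799 against 1368, 1245 and 1357. Neither of these groups overlapped, and the adjusted p was 0.0225 for Sdhb and 0.0128 for Ndufs3.

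**Figure D4:**
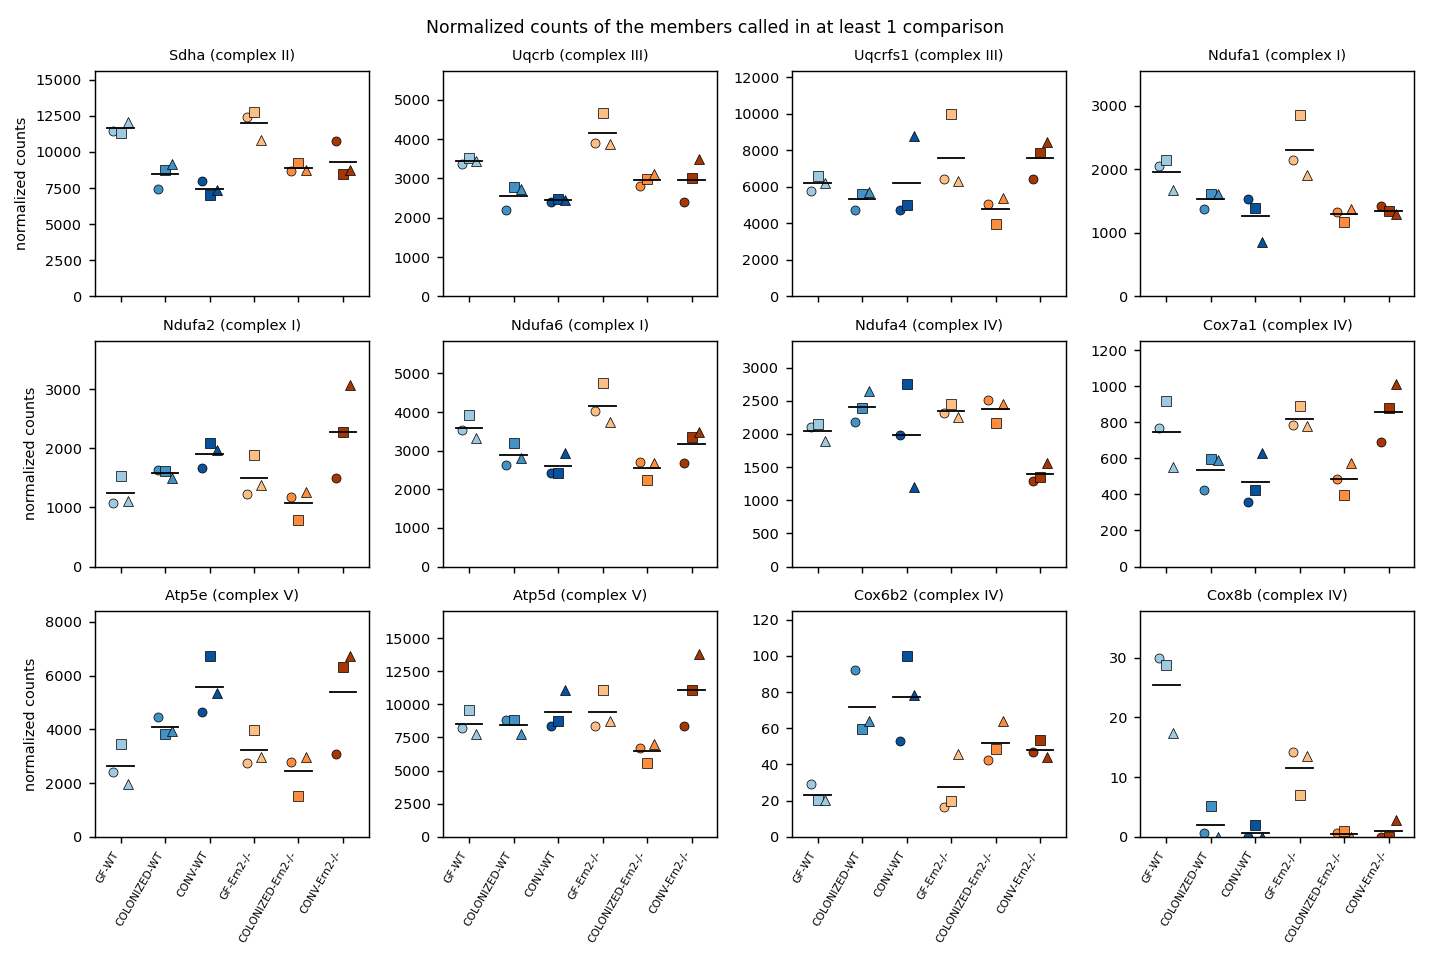
Normalized counts of members called in at least 1 comparison, 1 point per library (circle, square and triangle for replicates 1, 2 and 3) and 1 panel per gene, by group, with the group mean as a bar. Sdha is lower in every WT library with microbes than in the 3 GF-WT libraries (11346 to 12108), and Ndufa4 is low in all 3 CONV-Ern2-/- libraries (1283 to 1562).

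In CONV-Ern2-/- versus GF-Ern2-/- 1 member was called, Ndufa4, lower, against 4.33% of all genes. The members' median was -0.12 (all genes -0.02), and it turned to 0.04 without GF-Ern2-/- replicate 2. The groups were apart for 11 members, all lower (13.3% of detected genes). The call was lost without GF-Ern2-/- replicate 1 (1.9% of all genes called) or CONV-Ern2-/- replicate 2 (3.47%), and without CONV-Ern2-/- replicate 1 there were 2 calls (6.12% of all genes). It was also lost in the fit of all 18 libraries (adjusted p = 0.0109). Of the 10 goblet cell markers 4 were called lower and 1 higher, of the 7 enteroendocrine markers 3 higher, of the 5 tuft cell markers 3 higher, of the 8 mesenchymal markers 1 higher and of the 10 colonocyte markers 1 lower. Their part was not tested.

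CONV-Ern2-/- versus COLONIZED-Ern2-/- gave 6 calls, Ndufa2, Uqcrfs1, Cox7a1, Atp5d and Atp5e higher and Ndufa4 lower, against 8.59% of all genes. The members' median was 0.34 (all genes -0.01), and the complexes ranged from 0.30 (I) to 0.41 (III). At an unadjusted p under 0.05 there were 36 members higher and 1 lower, against 15.9% and 14.3% of all genes. Library ranges did not meet for 36 members higher (18.1% of detected genes) and 3 lower (18.8%). Scaling by total counts instead moved the median of all genes to -0.17 and that of the members to 0.17, and left the call of Ndufa4 only. Calls numbered 32 (31 higher) without CONV-Ern2-/- replicate 1 (18.4% of all genes), 2 without COLONIZED-Ern2-/- replicate 3 (4.94%), 1 without COLONIZED-Ern2-/- replicate 2 (4.68%) or CONV-Ern2-/- replicate 2 (5.97%) or 3 (4.02%), and 0 without COLONIZED-Ern2-/- replicate 1 (3.29%). Of the 10 colonocyte markers 7 were called higher, with sums of 356756 to 531903 in CONV-Ern2-/- against 128666 to 227479. Of the 10 goblet cell markers 4 were called lower, of the 7 enteroendocrine markers 2 lower, of the 8 mesenchymal markers 2 higher and of the 5 endothelial markers 1 higher. Their part was not tested.

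Ndufa4 (chr6:11900372-11907450), a complex IV subunit despite its name, had 1283, 1349 and 1562 (CONV-Ern2-/-), 2510, 2163 and 2445 (COLONIZED-Ern2-/-) and 2312, 2451 and 2258 (GF-Ern2-/-). The CONV-Ern2-/- libraries lay below all others of that genotype. Ndufa4 fell by 0.75 ± 0.19 against GF-Ern2-/- (adjusted p = 0.00338) and by 0.76 ± 0.17 against COLONIZED-Ern2-/- (adjusted p = 0.000176). With Y-linked transcripts as a covariate the values were -0.77 and -0.74, and both calls were lost (adjusted p = 0.0185 and 0.0124). In WT Ndufa4 had 2097, 2146 and 1889 (GF), 2172, 2392 and 2651 (COLONIZED) and 1991, 2757 and 1202 (CONV). The low CONV-WT library, replicate 3, was also low in goblet cell markers, whose sum was 99091 there against 656437 and 572936 in the other CONV-WT libraries and 68061 to 87530 in CONV-Ern2-/-. Goblet cell marker sums were 99478.5 to 238339 in GF-Ern2-/- and 156063 to 303303 in COLONIZED-Ern2-/-, where no Ndufa4 count was below 2163. The part of goblet cells in the Ndufa4 value was not tested.

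Of the members that rose from COLONIZED-Ern2-/- to CONV-Ern2-/-, Ndufa2, an accessory subunit of complex I, had 1176, 787 and 1256 (COLONIZED) and 1493, 2282 and 3068 (CONV). It rose by 1.09 ± 0.29 (adjusted p = 0.00296). Atp5d (chr10:80138698-80145828), the delta subunit of the ATP synthase stalk, had 6725, 5605 and 7031 and then 8378, 11109 and 13785. It rose by 0.78 ± 0.22 (adjusted p = 0.00525). In these genes, and in Atp5e, the lowest library was COLONIZED replicate 2, and CONV replicate 3 was the highest. Uqcrfs1 (chr13:30540312-30545316), the Rieske iron-sulfur protein of complex III, had 5077, 3956 and 5364 and then 6445, 7870 and 8471, and rose by 0.67 ± 0.19 (adjusted p = 0.00773). With the library total as a covariate these values were 0.47 for Ndufa2, 0.37 for Atp5d, 0.43 for Uqcrfs1, 0.38 for Atp5e and 0.47 for Cox7a1, and none was called (adjusted p from 0.412 to 0.747).

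Between genotype labels no member was called in any microbial state. In CONV-Ern2-/- versus CONV-WT the members' median was 0.22 (all genes 0.03), with 70 of 79 detected members above 0 (52.5% of all detected genes). DESeq2 made 0 calls (against 3.03% of all genes), with 2 members higher at an unadjusted p under 0.05 (8.03% of all genes). By edgeR the counts were 0 (0% of all genes) and 1 (15.4% of all genes, either direction). Library ranges were apart for 6 members higher (9.79% of detected genes) and 1 lower (11.3%). Of the 10 colonocyte markers 5 were called higher here, and of the 10 goblet cell markers 6 lower. Of the 8 stem and progenitor markers 1 was called higher (Olfm4) and 1 lower (Axin2), with a median of -0.86 over the list. Their part in the members' shift was not tested. Without CONV-WT replicate 3 there were 4 calls (12.4% of all genes), Cycs, Uqcrfs1 and Cox7a1 higher and Ndufa4 lower, and without CONV-Ern2-/- replicate 3 the median was 0.10.

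In GF-Ern2-/- versus GF-WT the median was 0.26 (all genes 0.02), and 79 of 79 detected members were above 0 (54.8% of all detected genes). DESeq2 made 0 calls (against 0.0349% of all genes) and edgeR 0 (0%), and each tool had 3 members at an unadjusted p under 0.05 (1.48% of all genes by DESeq2 and 1.54% by edgeR). The libraries were fully apart for 10 members, all higher (3.08% of detected genes). Without GF-Ern2-/- replicate 2 the median was 0.08.

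In COLONIZED-Ern2-/- versus COLONIZED-WT the median was -0.19 (all genes -0.00). DESeq2 made 0 calls (against 1.37% of all genes), with 25 members at an unadjusted p under 0.05, all lower (9.31% of all genes). edgeR made 0 calls (0.00786% of all genes), also with 25 members at that level (21.9% of all genes, either direction). Of the 10 goblet cell markers 4 were called lower here, as was 1 of the 8 stem and progenitor markers (Ascl2; median -0.50 over the list). Their part was not tested. The ranges of the groups were apart for 34 members lower (14% of detected genes) and 1 higher (16.5%). The lowest adjusted p was that of Atp5e, with a log2 difference of -0.75 (adjusted p = 0.0271). Leaving out COLONIZED-Ern2-/- replicate 1, 2 or 3 gave 1 call (5.26%, 0.731% and 1.29% of all genes), and without COLONIZED-Ern2-/- replicate 2 the median was -0.13. Fold changes went down with the GC content of the longest transcript, with Pearson's r of -0.51 over the 79 members and -0.45 over all other detected genes with a value, across genes of the same 6 libraries. Fold changes also moved with exon length. In GF-Ern2-/- versus GF-WT, Spearman's rho was -0.35 over all other detected genes and -0.09 over the members. In the COLONIZED interaction described next it was 0.49 and 0.28. The median member had 1046 exon bases, and members below that length had a median of -0.48 in that interaction against -0.41 for the longer ones. The part of base composition and length was not tested.

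The interaction tests gave 0 calls by DESeq2 and by edgeR (0% of all genes by edgeR). For COLONIZED versus GF, the members' response in the Ern2-/- libraries was lower than in WT by a median of 0.45 on the log2 scale (all genes 0.00). At an unadjusted p under 0.05 there were 31 members, all lower (3.29% of all genes), and 33 by edgeR (7.26%, either direction). The lowest adjusted p was 0.844, with 0.028% of all genes called. Without GF-Ern2-/- replicate 2 the median was -0.27. For CONV versus GF the median was -0.08, with 0 members at an unadjusted p under 0.05 (8.72% of all genes, and 0 against 7.42% by edgeR) and 0.177% of all genes called. It turned to 0.12 without GF-Ern2-/- replicate 2. Without CONV-WT replicate 3 there was 1 call in the CONV interaction (2.23% of all genes). In that interaction 2 of the 10 colonocyte markers were called higher (list median 1.99) and 1 of the 10 goblet cell markers lower (-1.47). In the COLONIZED interaction 0 colonocyte, goblet cell or enteroendocrine markers were called, with list medians of 0.09, -0.23 and 1.36. Their part was not tested.

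Genes around the respiratory chain were counted from lists. Of 44 measured assembly factors (of 47 listed) 6 rose in COLONIZED-WT versus GF-WT (9.35% of all genes rose) and 0 fell. They included Pet100, a complex IV assembly factor (0.76 ± 0.17, adjusted p = 6.92e-05), Ndufaf2 of complex I (0.79 ± 0.20, adjusted p = 0.000859) and Uqcc2 of complex III (0.64 ± 0.20, adjusted p = 0.00622). In CONV-WT versus GF-WT 2 rose (5.68% of all genes did), Pet100 (0.97) and Uqcc2 (0.92). No assembly factor was called in the other 7 comparisons, and edgeR called none of these genes, with 0.0101 as its lowest adjusted p. Atpif1, the inhibitor of ATP synthase, rose by 0.59 ± 0.15 in COLONIZED-WT (adjusted p = 0.0012).

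Of 19 measured regulators of mitochondrial biogenesis, Ppargc1a, which encodes the coactivator PGC-1α, was called in 3 comparisons. It had 1346 ± 46.2 (SD, n = 3) normalized counts in GF-WT, 506 ± 25.3 in COLONIZED-WT and 515 ± 191 in CONV-WT, and 1188 ± 410, 585 ± 82.3 and 512 ± 191 in the Ern2-/- groups. It fell by 1.40 ± 0.12 in COLONIZED-WT (adjusted p = 3.84e-27), by 1.40 ± 0.30 in CONV-WT (adjusted p = 7.43e-05) and by 1.03 ± 0.28 in COLONIZED-Ern2-/- against GF-Ern2-/- (adjusted p = 0.00498). Esrrg, an oestrogen-related receptor, fell by 1.75 ± 0.37 in CONV-Ern2-/- and by 1.26 ± 0.29 in COLONIZED-Ern2-/- against GF-Ern2-/-. Hif1a fell by 0.86 in COLONIZED-WT, and Myc by 0.63 in COLONIZED-Ern2-/- versus COLONIZED-WT. Ppargc1b, the related coactivator PGC-1β, rose by 0.89 in CONV-Ern2-/- versus COLONIZED-Ern2-/- (adjusted p = 0.00847). Of these values edgeR called Ppargc1a in COLONIZED-WT only (adjusted p = 0.00204). Beside this, of the WT members called, Sdha, Uqcrb and Cox8b fell, and Atp5e and Cox6b2 rose.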

How the data were processed

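RNA from colon crypt epithelial cells was sequenced in 18 libraries (75-cycle single-end reads of stranded mRNA libraries). Per the labels and methods, the authors used the VIPER pipeline with STAR and mm10, and deposited raw counts per gene symbol. Versions and the strand setting of counting were not given in the sources used here. The labels give each sample's column number, which placed all columns (0 belonged to no sample).

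Each of 9 comparisons was fitted with DESeq2 1.42.0 in R 4.3.3 on its own 6 libraries, with default size factors, filters and no shrinkage. The use of DESeq2 on raw counts and the threshold (adjusted p under 0.01) follow the study's methods. The other settings were chosen here. edgeR 4.0.16 was an alternative. The fits were tested on simulated data. Normalized counts were scaled over all 18 libraries. Lengths came from GENCODE basic exons of mm10, coordinates from RefSeq GRCm38.p6 (83 members matched by symbol and 3 by an older symbol).

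Members, gene lists and tests were chosen with earlier results of these data known. Chosen after values were seen were the mean of 20 for detected genes, the placing of Ndufa4 and the Atp5s genes, the deviation per library, the Cox8b count ratios, the GC check and the promoters shown. The NRF1 and YY1 motifs were shortened by 1 base after a first search. A first run set DESeq2's independent filtering for 0.01. Its default replaced that after part of the output was seen, and the first setting is kept as an alternative. Named were Ern2, core subunits and isoform pairs by role, up to 6 called members per complex and comparison, and up to 4 called genes of each other list, of which 1 is not reported here. Replicate numbers were not used to pair the libraries, except as a block in refits.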

Additional observations from a re-analysis of the deposited data

How the results depend on the processing

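The 19 called values were refitted under 285 alternatives, settings and left-out libraries together. In 159 the call held, in 126 it was lost, and in 0 the direction turned. The refits of single genes covered these and 80 uncalled values of core and isoform genes with an unadjusted p under 0.05, not every named gene. Of 1254 refits of those 80, 41 passed the threshold and 0 turned.

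Member calls without each library in turn ranged from 0 to 4 in CONV-Ern2-/- versus CONV-WT, 0 to 1 in COLONIZED-Ern2-/- versus COLONIZED-WT, 1 to 8 in CONV-WT versus GF-WT, 2 to 6 in COLONIZED-WT versus GF-WT, 0 to 2 in CONV-Ern2-/- versus GF-Ern2-/-, 0 to 7 in COLONIZED-Ern2-/- versus GF-Ern2-/-, 0 to 32 in CONV-Ern2-/- versus COLONIZED-Ern2-/- and 0 to 1 in the CONV interaction. The members' median ranged from -0.21 to 0.12 in the CONV interaction and from -0.54 to -0.27 in the COLONIZED interaction.

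In the order COLONIZED-Ern2-/- versus COLONIZED-WT, CONV-WT and COLONIZED-WT versus GF-WT, CONV-Ern2-/- and COLONIZED-Ern2-/- versus GF-Ern2-/-, and CONV-Ern2-/- versus COLONIZED-Ern2-/-, an adjusted p under 0.05 gave 7, 10, 10, 3, 21 and 18 calls, against 5.3%, 18.8%, 29%, 7.4%, 12.8% and 16.7% of all genes. edgeR gave 0, 0, 1, 0, 0 and 0, against 0.00786%, 0.175%, 4.94%, 0.0325%, 0.216% and 0.282%. A filter of 10 counts in 3 libraries gave 7 in COLONIZED-WT versus GF-WT (19.8% of all genes). Total-count scaling gave 2 in CONV-Ern2-/- versus GF-Ern2-/- (3.87%) and 1 in CONV-Ern2-/- versus COLONIZED-Ern2-/- (10.6%). A fit of all 18 libraries gave 3 (6.68%) and 22 (8.52%) in CONV-Ern2-/- and COLONIZED-Ern2-/- versus GF-Ern2-/-, and lost Ndufa4 in the former and Cox7a1 in the latter. It also lost Atp5e in COLONIZED-WT versus GF-WT and Uqcrfs1, Cox7a1 and Ndufa4 in CONV-Ern2-/- versus COLONIZED-Ern2-/-. The library total as a covariate gave 1 in CONV-WT versus GF-WT (7.93% of all genes; Cox7a1, which is none of the 5 calls without it) and left 1 in COLONIZED-WT versus GF-WT (10.1%), 0 in CONV-Ern2-/- versus GF-Ern2-/- (0.785%) and 1 in CONV-Ern2-/- versus COLONIZED-Ern2-/- (2.04%). Y-linked transcripts as a covariate left 0 in COLONIZED-WT versus GF-WT (1.92%) and 2 in CONV-Ern2-/- versus COLONIZED-Ern2-/- (4.76%). With that covariate Ndufa4 in CONV-Ern2-/- was lost against GF-Ern2-/- and against COLONIZED-Ern2-/- (adjusted p = 0.0185 and 0.0124). The causes were not tested. Scaling by total counts also took the median of all genes to 0.10 (members -0.35) in COLONIZED-Ern2-/- versus GF-Ern2-/- and to -0.08 (members 0.11) in CONV-Ern2-/- versus CONV-WT. TMM scaling changed no call of the 19, and independent filtering set for 0.01, used in a first run and replaced by the default after part of its output was seen, gives 1 call fewer, without Atp5e in COLONIZED-WT.

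The replicate number as a block gave 1 call in COLONIZED-Ern2-/- versus COLONIZED-WT (1.55% of all genes), 3 in CONV-WT versus GF-WT (9.4%), 0 in CONV-Ern2-/- versus GF-Ern2-/- (4.09%) and 1 in COLONIZED-Ern2-/- versus GF-Ern2-/- (7.2%). Outside this refit the numbers were not treated as pairs, since in no comparison was every same-number correlation over 0.1. Still, 1 to 5 of 6 libraries correlated best with their own number. The labels do not say whether libraries of 1 number were handled together.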

Other observations

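Fuel genes outside the respiratory chain were followed as lists. Among genes of the citric acid cycle, Cs (citrate synthase, -0.57) and Dlat (-0.48) fell in COLONIZED-WT versus GF-WT. In COLONIZED-Ern2-/- versus GF-Ern2-/- Cs fell by 0.61, and Idh3a fell by 0.72 in CONV-Ern2-/- versus GF-Ern2-/-. Of 21 genes of butyrate and fatty acid oxidation, 4 fell in CONV-WT versus GF-WT (5.28% of all genes fell), among them Cpt1a, the carnitine shuttle enzyme, by 1.00 and Hadhb by 0.56. In COLONIZED-WT 3 fell (8.97% of all genes), Acadm (-0.58), Slc5a8, a butyrate transporter (-0.59), and Hadhb (-0.48). Slc5a8 also fell by 1.19 in CONV-Ern2-/- versus GF-Ern2-/-, while another butyrate carrier, Slc16a1, rose by 1.46 in CONV-Ern2-/- versus CONV-WT. From COLONIZED-Ern2-/- to CONV-Ern2-/- the calls of this list went both ways. Acads (0.65) and Etfb (0.80) rose (4.86% of all genes rose), and Slc5a8 (-1.11) and Acsm3 (-1.34) fell (3.73% of all genes fell).

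Of 15 glycolysis genes, Pkm fell by 0.74 in COLONIZED-WT, 0.88 in CONV-WT and 0.90 in COLONIZED-Ern2-/-, each against its germ-free group. In CONV-Ern2-/- versus COLONIZED-Ern2-/- 4 rose (4.86% of all genes), Pfkl (1.10), Gpi1 (0.72), Ldha (0.60) and Gapdh (0.56). The cell markers called in that comparison, given above, included 7 of 10 colonocyte markers higher and 4 of 10 goblet cell markers lower. Their part in the glycolysis values was not tested. All values are log2 fold changes called by DESeq2 at an adjusted p under 0.01. edgeR's adjusted p for the genes named here lay at 0.0198 or above.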
